A study of Mus musculus with 6 samples.

Results

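The 10 genes described here encode transcriptional regulators of the radial glial, astrocyte and ependymal lineages: Sox2, Sox9, Nfia, Nfib, Nfix, Six3, Pax6, Zic1, Id4 and Id3. They were taken by gene name from the 47643 genes listed for every library, and all 10 names were found once each. RNA had been sequenced from GFP-positive cells that were sorted from the adult mouse ventricular-subventricular zone, the wall of the lateral ventricle with its stem cell niche. There were 3 libraries of the Ccn1 conditional knockout (Ccn1 cKO) and 3 of the control (Ctrl), all from mice given tamoxifen (TAM) 2 days before the sort. In both groups the drug switched on GFP in ependymal cells, and in the Ccn1 cKO it also deleted Ccn1, which encodes a matricellular protein that cells secrete, in those cells. The gate was set by hand on GFP against cells of wild-type mice. The recombinase, the promoter that drives it, the alleles, the strain, the sex and the exact age were not given in the sources used here. Nor do they say whether each library came from a separate animal, and p-values measure only the spread between these libraries, which may be technical. The labels describe the material both as total RNA and as cytoplasmic RNA.

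Ependymal cells are multiciliated cells that line the ventricles and descend from radial glia, the stem cells of the embryonic brain. Adult ependymal cells keep part of the regulator set of their radial glial ancestors and share much of it with astrocytes and adult neural stem cells. SOX2 and SOX9 are HMG-box factors of neural progenitors and glia, and the NFI proteins (NFIA, NFIB, NFIC and NFIX) switch on astroglial genes in development, partly together with SOX9. ID proteins have a helix-loop-helix domain but no DNA-binding region. They tie up E proteins and so hold back proneural factors, and BMP signalling is a known inducer of Id genes.

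The libraries held 13401499 to 15689579 estimated counts each. Ccn1, the deleted gene, had 238 to 524 counts in the 3 Ccn1 cKO libraries and 1665 to 2224 in the 3 controls, so each library went with its label. Its log2 difference was -2.22 ± 0.38 (SE), which edgeR's quasi-likelihood test did not call after adjustment (unadjusted p = 0.000415, adjusted p = 0.99999) and DESeq2 did (adjusted p = 4.15e-06). A member with a difference of that size could therefore also have missed the adjusted threshold of edgeR. Ependymal markers summed to 9541 to 10035 CPM (counts scaled to library size) in the Ccn1 cKO and 9007 to 12380 CPM in the control. A list of 10 markers of astrocytes and neural stem cells came to 3947 to 4660 CPM in the Ccn1 cKO and 4174 to 5059 CPM in the control (p = 0.2 by a two-sided exact permutation test, whose lowest possible p with 3 against 3 is 0.1), and several of its genes are also active in ependymal cells. Of the 5 endothelial markers, 4 (Pecam1, Cldn5, Cdh5 and Kdr) were at 0 in all 6 libraries, as were 2 of the 8 oligodendrocyte lineage markers, Mog and Sox10. The oligodendrocyte list as a whole came to 52.4 to 115 CPM in the Ccn1 cKO and 49.9 to 220 CPM in the control. That of the choroid plexus, the secretory epithelium of the ventricles, came to 296 to 801 CPM in the Ccn1 cKO and 522 to 649 CPM in the control. Microglial markers came to 17.5 to 41.5 CPM in the Ccn1 cKO and 11.5 to 37.4 CPM in the control. The summed mural and fibroblast markers were low but did not overlap, at 17.6 to 27.1 CPM in the Ccn1 cKO and 7.37 to 11.8 CPM in the control (exact permutation p = 0.1). Of these 6 markers, Dcn and Lum were at 0 in all 6 libraries. Col1a2 was the most abundant and the only one to pass the filter on low counts. The part of other cells in the values below was not tested.

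Across genes, the level is given as the deposited TPM, an abundance scaled for both transcript length and library size. The members covered a wide range in these cells (the plot of TPM by gene and library). Id4 was far ahead, with a mean of 709 TPM over the 6 libraries, above the mean TPM of 98.3% of the 11574 genes that passed the filter on low counts. Sox9 followed at 153 TPM and Id3 at 102 TPM. Nfix (43.8 TPM), Nfia (39.8 TPM) and Sox2 (39.6 TPM) stood close together, and Nfib was at 17.3 TPM. Pax6 (4.29 TPM) and Six3 (3.89 TPM) were low, and Zic1 (0.041 TPM) was near 0 and failed the filter, so 9 of the 10 members were tested.

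**Figure D1:**
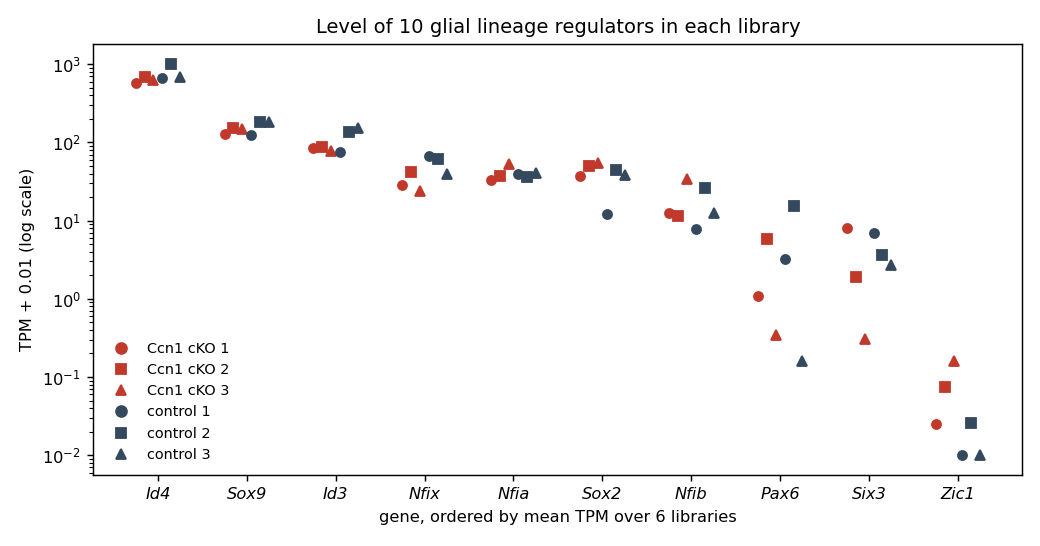
TPM of each gene in each library on a log scale, with 0.01 added so that values of 0 can be drawn; red, Ccn1 cKO; dark blue, control; the marker shape gives the replicate number. Id4 lies above every other gene in all 6 libraries, and Pax6, Six3 and Zic1 scatter far more than the genes to their left.

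Only some steps in this order were larger than the spread between libraries. The lowest Id4 value (567 TPM) was above the highest Sox9 value (184 TPM). Sox9 was above Id3 in 6 of 6 libraries although their ranges overlapped, and Id3 was above Nfix in 6 of 6 with no overlap. Nfix was above Nfia in 3 of 6 libraries and Nfia above Sox2 in 2 of 6, so the order of these 3 genes is not settled by these data. Sox2 was above Nfib, and Nfib above Pax6, in 6 of 6 libraries each, with overlapping ranges over all libraries. Pax6 was above Six3 in 3 of 6. The lowest Six3 value (0.294 TPM) was above the highest Zic1 value (0.150 TPM).

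The regions around the RefSeq start of 4 genes are shown. Id4 was taken for the highest level, Id3 as its relative, and Zic1 as a gene near 0. Sox2 was taken for the largest positive difference between the genotypes among the tested members. Each is the RefSeq window of 300 bases on GRCm38.p6, 250 before and 50 after the annotated start, read 5′ to 3′ on the strand of the gene. Capitals mark TTGGC, the core of NFI binding sites, and CCAAT, the motif of the CCAAT box, each searched on both strands. The pair overlaps wherever GCCAAT or ATTGGC occurs. The windows lie at chr13:48260866-48261165 (Id4, plus strand), chr4:136143572-136143871 (Id3, plus strand), chr3:34649745-34650044 (Sox2, plus strand) and chr9:91365719-91366018 (Zic1, minus strand). RefSeq starts differ from the GENCODE M21 gene coordinates given below. The Id4 and Sox2 windows end before the GENCODE starts at 48261228 and 34650405. The Id3 window lies inside the GENCODE gene, which runs from 136143497 to 136145755.
Id4: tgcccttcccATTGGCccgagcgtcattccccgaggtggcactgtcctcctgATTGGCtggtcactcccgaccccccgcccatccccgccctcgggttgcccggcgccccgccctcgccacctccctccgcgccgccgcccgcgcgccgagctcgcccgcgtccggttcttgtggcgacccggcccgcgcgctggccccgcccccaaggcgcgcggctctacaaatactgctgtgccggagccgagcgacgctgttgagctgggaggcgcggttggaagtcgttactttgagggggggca
Id3: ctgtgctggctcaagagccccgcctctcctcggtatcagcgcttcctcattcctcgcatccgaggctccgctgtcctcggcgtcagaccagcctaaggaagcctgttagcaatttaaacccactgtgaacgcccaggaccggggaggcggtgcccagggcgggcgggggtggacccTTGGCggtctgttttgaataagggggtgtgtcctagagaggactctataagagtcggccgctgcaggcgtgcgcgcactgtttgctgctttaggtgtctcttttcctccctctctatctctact
Sox2: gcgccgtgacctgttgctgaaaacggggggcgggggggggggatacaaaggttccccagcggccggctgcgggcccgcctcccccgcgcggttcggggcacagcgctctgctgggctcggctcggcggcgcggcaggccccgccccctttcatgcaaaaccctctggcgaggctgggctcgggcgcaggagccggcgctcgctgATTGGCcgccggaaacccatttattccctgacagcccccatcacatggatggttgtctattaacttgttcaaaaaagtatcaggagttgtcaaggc
Zic1: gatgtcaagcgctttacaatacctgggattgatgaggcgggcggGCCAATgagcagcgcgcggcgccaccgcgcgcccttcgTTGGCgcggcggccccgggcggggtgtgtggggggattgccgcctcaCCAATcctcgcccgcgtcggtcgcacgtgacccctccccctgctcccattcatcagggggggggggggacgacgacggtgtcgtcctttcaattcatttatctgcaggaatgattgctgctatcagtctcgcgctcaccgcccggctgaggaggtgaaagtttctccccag
TTGGC occurs 2 times in the Id4 window, 1 time in that of Id3, 1 time in that of Sox2 and 2 times in that of Zic1. It is found in 46.7% of all 32851 RefSeq windows of this length, and CCAAT in 37.4%. GGCGCC, a GC-rich element known from BMP-responsive Id promoters, occurs 1 time each in the windows of Id4 and Zic1 and not in those of Id3 and Sox2, against 11.9% of all windows. The G and C content was 73.3% for Id4, 60.0% for Id3, 66.3% for Sox2 and 65.3% for Zic1, where the median window had 52.7%. These matches describe the letters only. In all, 8 of the 10 members had an entry in this table, with 12 windows between them, and Sox9 and Nfib had none. The windows not printed were less uniform. TTGGC was absent from those of Nfia and Pax6 and from the Nfix window at chr8:84780033-84780332. It was present in the Six3 window and the other Nfix windows. The G and C content was 44.7% for Nfia, 46.3% and 58.7% for Pax6, and 44.3 to 57.3% for Nfix. That of Six3 was below the median of 52.7%.

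The main comparison asked whether these regulators differed between Ccn1 cKO and control ependymal cells. No member did so beyond the spread between libraries. By edgeR's quasi-likelihood test 0 of the 9 tested members passed at a Benjamini-Hochberg adjusted p of 0.05 over all genes (0% of all 11574 tested genes passed, and the adjusted p of every member was 0.99999). At an unadjusted p of 0.05 there were also 0 members, against 2.75% of all tested genes (1.31% lower in the Ccn1 cKO), and DESeq2, which called 1.63% of the genes it tested, called 0 members. In 0 of the 9 did the 3 Ccn1 cKO values lie entirely above or below the 3 control values, against 9.62% of all tested genes (4.99% entirely above and 4.62% entirely below). Of the 9 log2 differences, 3 were above and 6 below 0, with a median of -0.32, beside 49.7% below 0 and a median of 0.0044 over all tested genes. In sorted bulk RNA of this kind, fewer cells of a type and less RNA per cell cannot be told apart.

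**Figure D2:**
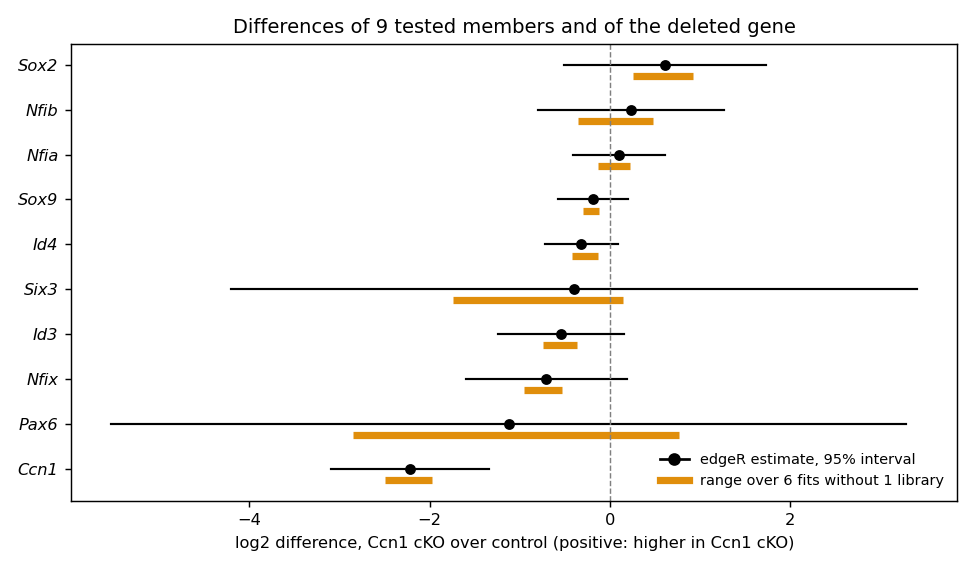
Log2 difference between Ccn1 cKO and control for the 9 tested members and Ccn1, with the edgeR estimate (point), its 95% interval (black line) and the range over the 6 fits that leave out 1 library each (orange bar). The intervals of all 9 members include 0, that of Ccn1 does not, and those of Six3 and Pax6 span several log2 units.

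Among the SOX genes, Sox9 had the lowest dispersion of the tested members. Its CPM, scaled by TMM (a correction for library composition), was 451, 517 and 527 in the Ccn1 cKO libraries and 469, 615 and 617 in the controls. The groups overlapped through control 1, and the means were 498 ± 41.2 CPM in the Ccn1 cKO and 567 ± 84.8 CPM in the control. Here and below, ± after a level is the SD of the 3 libraries and ± after a log2 difference the SE. The log2 difference was -0.19 ± 0.17 (SE), with a 95% interval from -0.57 to 0.20. Small as it was, it moved by over 1.5 times when 1 library was left out, to -0.30 without control 1 and to -0.12 without Ccn1 cKO 1, control 2 or control 3. Its edgeR dispersion was below that of 98.6% of the tested genes, a coefficient of variation of 21.2% between libraries. Sox9 lies on chromosome 11 from 112782224 to 112787760 (GENCODE M21, GRCm38).

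Sox2 went the other way. It stood at 61.0, 77.4 and 91.3 CPM in the Ccn1 cKO libraries, against 21.8, 69.2 and 59.4 CPM in the controls. Control 1 was far below the other 5 libraries, and the value of control 2 lay between those of Ccn1 cKO 1 and Ccn1 cKO 2. The log2 difference of 0.61 ± 0.48 (SE, 95% interval from -0.51 to 1.74) was 0.26 without control 1. Sox2 lies on chromosome 3 from 34650405 to 34652461, inside the long noncoding gene Sox2ot on the same strand, with which it shares 0 annotated exon bases. Sox2ot stood at 49.96 ± 15.9 CPM in the Ccn1 cKO and 50.54 ± 25.9 CPM in the control.

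Because Sox9 and Sox2 leaned in opposite directions, their ratio within a library separated the groups. Sox9 TPM was 3.42, 3.07 and 2.67 times Sox2 TPM in the Ccn1 cKO libraries, and 9.96, 4.10 and 4.80 times in the controls. Every control ratio was above every Ccn1 cKO ratio. Control 1 lay far above the other controls, whose 4.10 and 4.80 were nearer to the highest Ccn1 cKO ratio of 3.42. Sox1, a relative of Sox2 from the same SOXB1 group, stood at 38.8 ± 14.5 CPM in the Ccn1 cKO and 21.02 ± 5.69 CPM in the control (log2 difference 0.89 ± 0.62, adjusted p = 0.99999 by edgeR). Sox3, the remaining SOXB1 gene, was at 0 in 5 of 6 libraries. The summed CPM of Sox1, Sox2 and Sox3 was 109 to 124 in the Ccn1 cKO and 44.7 to 96.1 in the control, without overlap, whereas their summed TPM overlapped (49.0 to 61.0 in the Ccn1 cKO and 17.4 to 52.3 in the control).

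**Figure D3:**
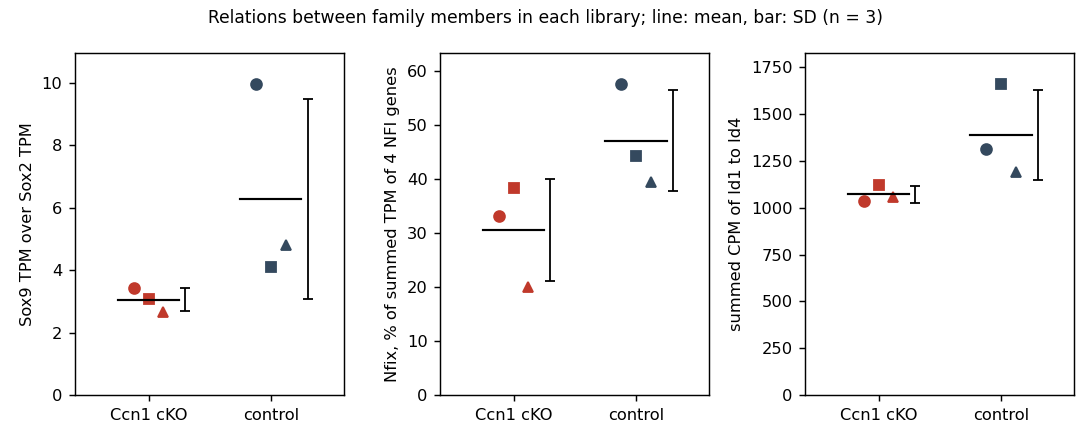
Sox9 TPM over Sox2 TPM (left), the share of Nfix in the summed TPM of the 4 NFI genes (middle) and the summed CPM of Id1 to Id4 (right) in each library, with the mean (line) and SD (bar, n = 3). The groups do not overlap in any of the 3 panels in the units drawn, although the Nfix share overlaps when taken in CPM; these relations were picked after the values had been seen.

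These relations are descriptions and have no test of their own. In total 19 sums, ratios and shares within the SOX, NFI and Id genes were computed in both units, many of them sharing genes. The groups did not overlap in 3 of the 19 in TPM and in 3 of the 19 in CPM (15.8% each, against 9.62% of single tested genes in CPM). The Sox9 to Sox2 ratio and the Id sum were without overlap in both units, the Nfix share of the NFI genes in TPM only and the SOXB1 sum in CPM only.

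Among the NFI genes, Nfia was the most even. Its values were 272, 286 and 426 CPM in the Ccn1 cKO libraries and 339, 273 and 304 CPM in the controls, and the groups overlapped. The log2 difference was 0.10 ± 0.22 (SE, 95% interval from -0.41 to 0.62). Ccn1 cKO 3 was the highest library, and without it the difference was -0.14. Nfib also had its highest value in Ccn1 cKO 3, at 61.5, 67.7 and 162 CPM in the Ccn1 cKO libraries, against 60.9, 105 and 81.6 CPM in the controls. Its log2 difference of 0.24 ± 0.44 became -0.36 without that library. Nfia and Nfib therefore have no settled direction here.

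Nfix, which is needed in mouse for normal ependymal development, had the largest negative difference of the set apart from Pax6. It stood at 48.4, 67.5 and 37.3 CPM in the Ccn1 cKO libraries and at 99.97, 89.4 and 60.3 CPM in the controls. The groups overlapped by 1 pair, since Ccn1 cKO 2 was above control 3. The Ccn1 cKO mean was 61.4% of the control mean, a log2 difference of -0.70 ± 0.38 with a 95% interval from -1.59 to 0.19 (unadjusted p = 0.105, adjusted p = 0.99999 by edgeR). The sign was the same in all 6 fits without 1 library, from -0.96 to -0.53. Nfix made up 33.2, 38.3 and 20.1% of the summed TPM of the 4 NFI genes in the Ccn1 cKO libraries, and 57.5, 44.3 and 39.4% in the controls. In CPM the shares overlapped, at 11.8, 14.8 and 5.73% in the Ccn1 cKO libraries and 19.3, 17.8 and 12.5% in the controls. Nfix lies on chromosome 8 from 84699876 to 84800344.

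Among the members the choice of unit mattered most for Nfib. The estimated count per TPM follows the mean length of the transcripts to which the reads were assigned, and it was set relative to that of Sox9 in the same library. For Sox2, Id4 and Id3 it varied by at most 1.01-fold over the libraries and for Nfia by 1.03-fold. For Nfix it varied by 1.24-fold. In libraries with at least 20 counts it varied by 1.36-fold for Pax6 (4 libraries) and by 1.58-fold for Six3 (5 libraries). For Nfib, with 12 annotated transcripts, it ran from 1.22 to 2.05. Ccn1 cKO 1 and control 1 thus had nearly the same Nfib level in CPM, at 61.5 and 60.9, but 12.6 TPM in Ccn1 cKO 1 and 7.75 TPM in control 1. Nfic, the NFI gene outside the set, varied more, from 0.56 to 1.54, with controls 1 and 3 apart from the other 4 libraries. The gene totals do not show which transcripts were used.

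**Figure D4:**
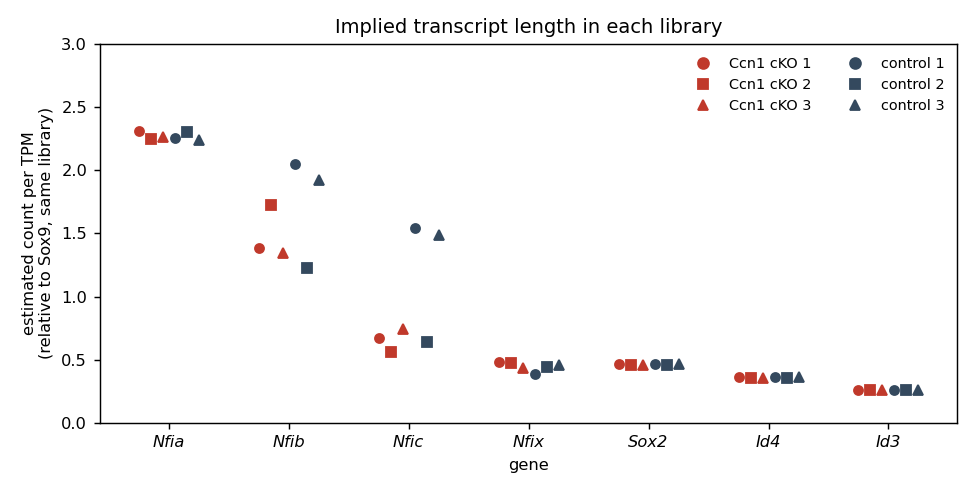
Estimated count per TPM in each library relative to Sox9 in the same library, a measure of the mean length of the transcripts to which reads were assigned. The points of Sox2, Id4, Id3 and Nfia lie together, those of Nfix vary by 1.24-fold, and those of Nfib and Nfic spread further.

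The Id genes carried the highest level of the set. Id4, which in mouse holds adult hippocampal stem cells in quiescence, stood at 718, 844 and 811 CPM in the Ccn1 cKO libraries and at 906, 1218 and 828 CPM in the controls. The groups met only where Ccn1 cKO 2 exceeded control 3. The log2 difference was -0.32 ± 0.18 (SE, 95% interval from -0.72 to 0.093, unadjusted p = 0.112, adjusted p = 0.99999 by edgeR). Without control 2, the highest library, it was -0.13. Id4 lies on chromosome 13 from 48261228 to 48266026 and overlaps exons of the antisense gene A330033J07Rik over 82 bases. It also overlaps exons of Gm49291, a long noncoding gene on the opposite strand, over 171 bases. A330033J07Rik stood at 8.63 to 26.2 CPM, and Gm49291 has no value in these data. Strandedness is not given in the sources used here, and reads from these shared bases cannot be told apart.

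Id3 was nearly constant in the Ccn1 cKO, at 77.7, 75.6 and 72.6 CPM, against 76.2, 117 and 134 CPM in the controls. Control 1 lay among the Ccn1 cKO libraries and the other 2 controls were higher. The log2 difference was -0.54 ± 0.30 (95% interval from -1.24 to 0.16). Leaving out 1 library moved it between -0.74 without control 1 (unadjusted p = 0.0248, adjusted p = 0.997 by edgeR) and -0.36 without control 3 (unadjusted p = 0.322, adjusted p = 0.99994 by edgeR). Id3 lies on chromosome 4, as do Nfia and Nfib, from 136143497 to 136145755.

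The Id relatives outside the set leaned the same way without passing the test. Id2 stood at 190 ± 28.5 CPM in the Ccn1 cKO and 254 ± 34.4 CPM in the control (log2 difference -0.42 ± 0.21, unadjusted p = 0.0793, adjusted p = 0.99999 by edgeR). Id1 stood at 16.3 ± 4.07 CPM in the Ccn1 cKO and 40.9 ± 28.6 CPM in the control. Summed over Id1 to Id4, the level was 1036, 1123 and 1059 CPM in the Ccn1 cKO libraries and 1315, 1659 and 1191 CPM in the controls, so all 3 Ccn1 cKO sums were below all 3 control sums. Id4 alone made up 59.5 to 69.7% of the summed TPM of the family in the 6 libraries. The mix of the 4 genes overlapped between genotypes, with Id4 at 66.2 ± 4.47% in the Ccn1 cKO and 62.3 ± 3.07% in the control.

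**Figure D5:**
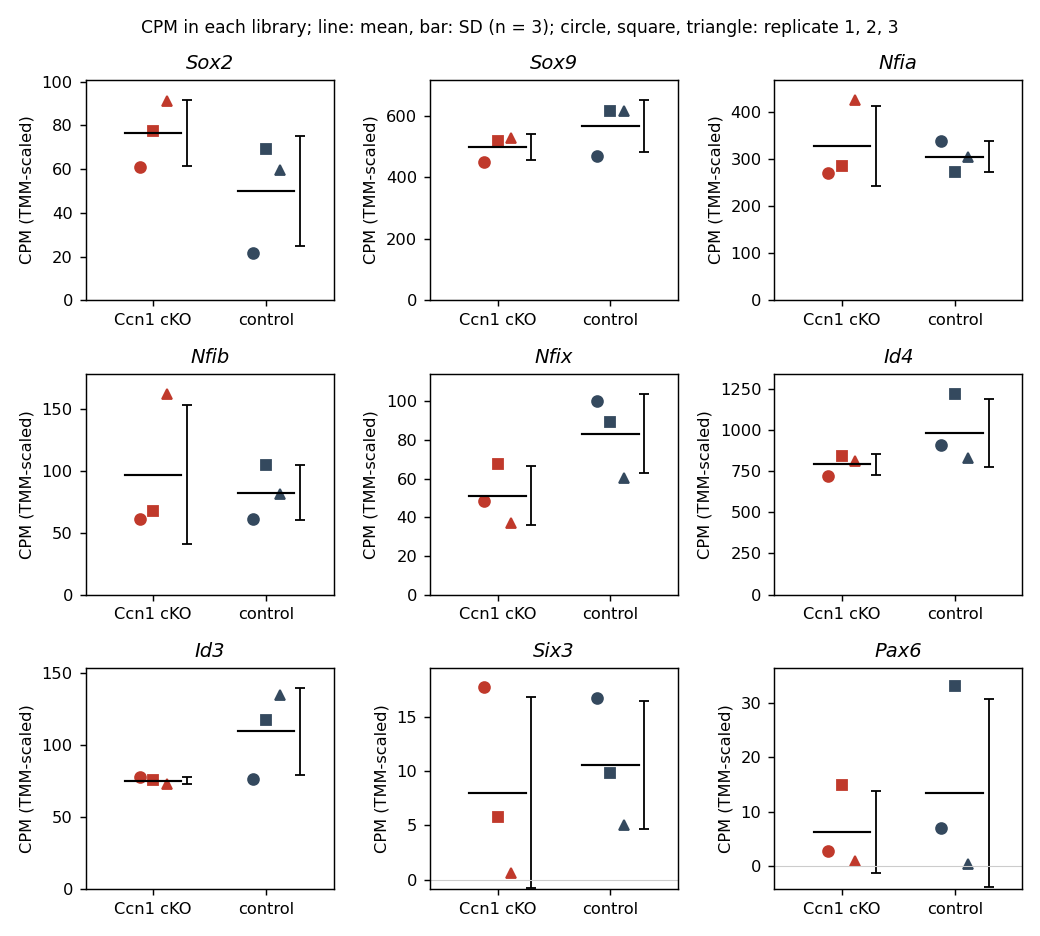
CPM of the 9 tested members in each library, with Ccn1 cKO (red) left of control (dark blue), the mean (line) and SD (bar, n = 3). Control 1 is the low point of Sox2, Ccn1 cKO 3 the high point of Nfia and Nfib, and the values of Six3 and Pax6 vary within each group.

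Six3 and Pax6 were detected in every library, at levels that differed far more within a genotype than between genotypes. Six3, which is required for ependymal maturation in mouse, had 244, 77 and 8 counts in the Ccn1 cKO libraries and 253, 134 and 79 in the controls. The log2 difference of -0.39 ± 1.65 had a 95% interval from -4.20 to 3.41, and the sign changed when Ccn1 cKO 3 or control 1 was left out (0.15 and 0.11). Six3os1, the antisense gene next to Six3 with 106 shared exon bases, had 0 to 71.6 counts. Pax6, a regulator of radial glia and of olfactory bulb interneurons, had 38, 199 and 13 counts in the Ccn1 cKO libraries and 104, 453 and 6 in the controls. The second replicate of each genotype was the highest, and without control 2 the log2 difference of -1.12 ± 1.90 became 0.77. A change of several fold in either gene would not have been detectable with this spread.

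Zic1, a marker of dorsomedial neural progenitors, had 1, 4 and 10 counts in the Ccn1 cKO libraries and 0, 1 and 0 in the controls. For a library at 0, the limit is 3 counts, or 0.193 CPM of the library total in control 1 and 0.191 in control 3 (counting error only). All 6 values are so low that no fold is given. Its neighbour Zic4 had 67 counts in control 2 and at most 1 in any other library.

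The wider regulator, partner and target lists, 91 further genes of which 59 passed the filter, gave 0 genes that passed in either direction by edgeR (smallest adjusted p = 0.99999) and 0 by DESeq2. At an unadjusted p of 0.05 there were 3 (5.08%, against 2.75% of all tested genes), and 6 of the 59 had groups that did not overlap (10.2%, against 9.62%). The median log2 difference was -0.20, with 35 of 59 below 0. The 3 with the smallest p were Rfx3, Hopx and Zfp36l1. Rfx3, a ciliogenic factor, stood at 22.8 ± 12.2 CPM in the Ccn1 cKO and 72.6 ± 23.3 CPM in the control. Hopx, a homeodomain-only protein of quiescent stem cells, stood at 73.3 ± 46.0 CPM in the Ccn1 cKO and 19.8 ± 6.28 CPM in the control. Zfp36l1, which encodes an RNA-binding protein that promotes decay of AU-rich mRNAs, stood at 337 ± 62.6 CPM in the Ccn1 cKO and 467 ± 45.1 CPM in the control (log2 difference -0.47 ± 0.19, unadjusted p = 0.0363 by edgeR). The Ccn1 cKO values in CPM lay entirely above those of the control for Meis2, Gmnc and E2f5, and entirely below them for Nr2e1, Rfx3 and Zfp36l1. For Nr2e1 the gap was narrow, from 22.56 CPM in Ccn1 cKO 3 to 22.63 CPM in control 1. In TPM its groups overlapped (up to 8.62 in the Ccn1 cKO and from 7.57 in the control).

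Of the 21 close relatives, 11 were tested (5 above and 6 below 0, median -0.11), and 3 were at 0 in all 6 libraries, among them Sox10. Sox6, a SOXD factor, stood at 87.0 ± 28.4 CPM in the Ccn1 cKO and 65.2 ± 40.2 CPM in the control. Of the 28 other radial glial and glial regulators, 18 were tested (9 above and 9 below 0, median -0.0023). Zbtb20 stood at 354 ± 58.3 CPM in the Ccn1 cKO and 413 ± 52.6 CPM in the control, and the Notch effector gene Hey1 at 144 ± 29.4 CPM in the Ccn1 cKO and 183 ± 37.5 CPM in the control. Of the 3 E protein genes, the partners of ID proteins, Tcf4 stood at 99.2 ± 44.9 CPM in the Ccn1 cKO and 129 ± 52.4 CPM in the control. The log2 differences were -0.43 for Tcf3, -0.38 for Tcf4 and 0.75 for Tcf12.

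Genes known in mouse astroglia as targets of SOX9 or NFI factors were 7 below and 2 above 0 among the 9 tested of 11 (median -0.36), and 0 passed. Slc1a3, the glutamate transporter GLAST, stood at 819 ± 18.2 CPM in the Ccn1 cKO and 946 ± 311 CPM in the control. Gfap, an astrocytic filament gene, stood at 338 ± 102 CPM in the Ccn1 cKO and 434 ± 219 CPM in the control. The 2 above 0 were Hepacam (log2 difference 0.42 ± 0.28) and Fabp7 (0.26 ± 0.32). Of the 18 BMP pathway genes upstream of Id genes, 10 were tested (4 above and 6 below 0, median -0.48), and 0 passed. The ligand gene Bmp6 stood at 56.4 ± 28.9 CPM in the Ccn1 cKO and 94.96 ± 16.1 CPM in the control. The log2 differences of the BMP list ran from -1.20 for Smad6 to 1.49 for Bmpr2. Of the 10 multiciliation regulators, 8 were tested (3 above and 5 below 0, median -0.081). Foxj1, the master factor of motile cilia, stood at 31.7 ± 8.18 CPM in the Ccn1 cKO and 26.8 ± 16.7 CPM in the control. In TPM it was at 3.26 to 18.8, below Sox9, Nfia and Id4 in every library.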

How the data were processed

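Per the submitters' processing notes, the reads passed through CASAVA 1.8, cutadapt 1.11 and kallisto 0.42.5, a pseudoaligner. The build, the annotation, strandedness and any summing to genes were not given in the sources used here. In the deposited files each gene has an estimated count and a TPM value in each library. Coordinates come from GENCODE M21 (GRCm38), matched by gene ID. Estimated counts were rounded, filtered with filterByExpr, scaled by TMM and tested over the whole table with edgeR 4.0.16 (robust quasi-likelihood test, genotype as the only term, Benjamini-Hochberg at 0.05) in R 4.3.3. Levels between groups are CPM, and levels between genes are the deposited TPM. Marker sums, 1 value per library, were compared by exact permutation over 20 assignments. The members, the wider lists, the markers and the naming rule (the members, Ccn1, and from each list the most abundant genes and those with the smallest p) were chosen with earlier results of these data known, and the family sums, ratios and shares and the count per TPM after the values had been seen. Alternatives were DESeq2 1.42.0, limma 3.58.1 on voom or log2(TPM + 1) or log2(TPM + 0.1) values, other scalings and filters, a replicate block and each library left out. The tests were also run on simulated counts, and the outcome is not given here.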

Additional observations from a re-analysis of the deposited data

How the results depend on the processing

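The call of 0 members and of 0 genes in the wider lists was the same in all 16 other settings. DESeq2 called 198 genes over the whole table (110 higher and 88 lower in the Ccn1 cKO), 0 of them members, and the other 15 settings called 0. The Ccn1 difference was -2.22 with DESeq2 and passed there (adjusted p = 4.15e-06), and ran from -2.495 to -1.97 in the 6 fits without 1 library. The 9 tested members kept their sign in 88 of 88 fits by other tools, scalings, filters or units (lowest adjusted p = 0.637, for Nfix with DESeq2) and in 49 of 54 fits without 1 library. The exceptions were Nfia (-0.14 to 0.22), Nfib (-0.36 to 0.48), Pax6 (-2.85 to 0.77) and Six3 (-1.74 to 0.15), and the cause was not tested. Sox2, Sox9, Nfix, Id3 and Id4 kept their sign throughout. The TPM order could not be recomputed per kilobase, since the files give no lengths, and Zic1 failed the filter and has no value here. The replicate numbers do not pair the libraries by the labels. Same-numbered deviations correlated at only 0.0080, 0.031 and 0.015. Every library correlated best with its own number, but for Ccn1 cKO 1 the highest value with another number was 0.0070. Whether such a match exceeds chance was not tested. With a replicate block in the fit 0 genes and 0 members were called, and Ccn1 stood at -2.27. With 3 libraries a group and a coefficient of variation between libraries of 96.7% for the median tested gene, the precision is low, most of all for Six3 and Pax6 among the members (130 and 146%).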
